A study of Homo sapiens with 40 samples.

Results

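EPCAM and the claudins were followed through knockdown of NANOG, OCT4 or SOX2 in human embryonic stem cells. The members were 8 genes, EPCAM, CLDN1, CLDN3, CLDN4, CLDN5, CLDN6, CLDN7 and CLDN10, taken by gene symbol, of which 7 were among the 13575 genes tested. They have 12 probes of the 47323 on the array. Claudins are membrane proteins that form the strands of tight junctions, the seals between neighbouring epithelial cells, and the claudins a cell makes set which ions the seal lets through. EPCAM is an adhesion glycoprotein of epithelial and pluripotent cells that binds claudins, CLDN7 above all, and holds them at the membrane. Human embryonic stem cells grow as an epithelial sheet and carry both EPCAM and claudins.

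The cells were 2 established embryonic stem cell lines of human origin, H1 and H9, on Matrigel in mTeSR medium, and lentivirus was added with polybrene. In H1 cells the virus was a control (H1P) or carried a short hairpin RNA, shRNA, against SOX2, NANOG or OCT4. A further arm was H9 cells with OCT4 shRNA, with no H9 control. Each of the 5 arms held 8 arrays, 1 a day from day 0 to day 7. All arms carried a lentivirus, and each was 1 time course of a bulk culture.

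Of the 40 arrays 39 were compared, and the NANOG shRNA array of day 7 was left out because its values lie on another scale. The 4 arrays of days 4 to 7 (3 with NANOG shRNA) served as replicates, so a p-value here reflects scatter between days and not between separate cultures. Levels are log2 probe intensities after background correction. The level above which a probe counts as above background is 6.57 on that scale. The arrays' number limits the precision. The labels held at the targeted genes. On days 4 to 7 the limma differences from control were -5.91 for POU5F1, which encodes OCT4, with OCT4 shRNA, -2.11 for NANOG with NANOG shRNA and -1.99 for SOX2 with SOX2 shRNA. The target was already lower at the start, NANOG at 7.61 ± 0.27 with NANOG shRNA against 9.08 ± 0.24 in control (SD, 2 arrays each, days 0 and 1). On those days SOX2 was at 9.92 ± 0.08 with SOX2 shRNA against 11.89 ± 0.18 in control. POU5F1 was at 11.65 ± 0.97 with OCT4 shRNA against 12.60 ± 0.19. The targets also differed from control in other arms: NANOG, above background on only 1 of 4 late arrays with OCT4 shRNA, was fitted at -2.22 there, SOX2 was at -3.55 with OCT4 shRNA, and POU5F1 at -1.18 with NANOG shRNA. NANOG was above background on 2 of 3 late arrays with NANOG shRNA and POU5F1 on 3 of 4 with OCT4 shRNA. SOX2 with SOX2 shRNA stood at 10.16 ± 0.18 (SD) on the 4 late arrays, above background on all 4. SOX2 RNA was thus lowered and not lost. In H9 cells POU5F1 fell by 2.37 over time and stood at 9.33 ± 0.66 on days 4 to 7, while the H1 arm with OCT4 shRNA stood at 6.79 ± 0.29 (SD, 4 arrays each).

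The pluripotent label was borne out by the markers of days 0 and 1, when all 11 pluripotency markers with a probe were above background on every array of each arm. In bulk RNA, fewer cells of a type and less RNA per cell cannot be told apart, here or in any result below.

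Of the 8 members 7 could be tested, by a filter that kept a probe above background on at least 4 arrays, and 10 of the 12 probes passed. CLDN5, the claudin of endothelial junctions, was not above background on any of the 39 arrays, with levels between 5.77 and 6.47. The other probe that failed was 1 of 3 for CLDN10. EPCAM's main probe lay between 11.29 and 13.67 on every array used. In the control arm it stood at or above the 98.5th percentile of its array each day. CLDN7, CLDN6 and CLDN10 were above background on all 39 arrays, as was CLDN3. CLDN1 passed on most arrays, and CLDN4 hovered at the background level. It was above on 2 of 8 control arrays, 2 of 8 with SOX2 shRNA, 4 of 8 with OCT4 shRNA in H1, 3 of 7 with NANOG shRNA and 7 of 8 in H9.

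**Figure D1:**
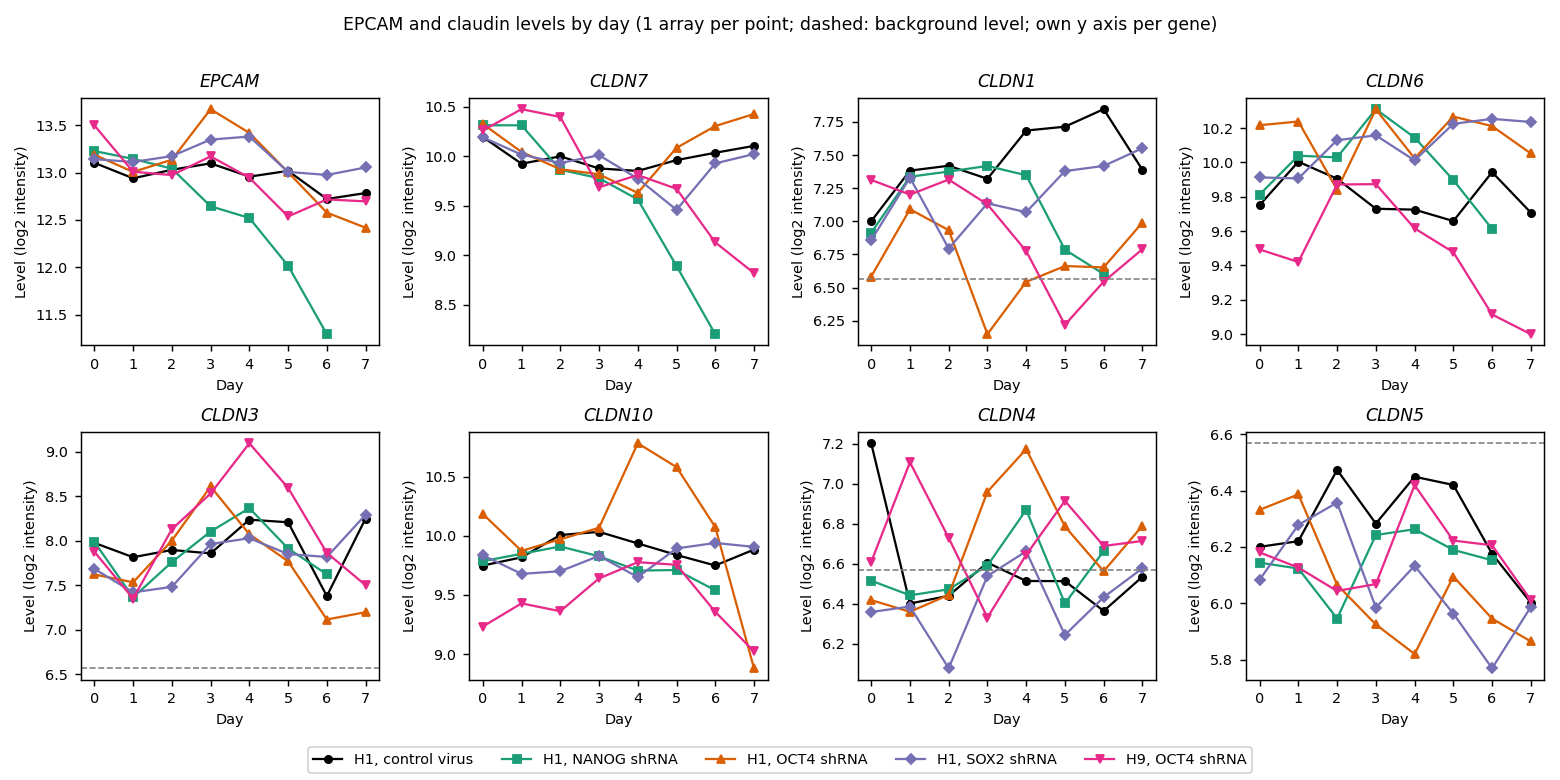
Level of each member (log2 intensity, y axis, own range per gene) against day (x axis) in the 5 arms, 1 array per point. EPCAM and CLDN7 run downward with NANOG shRNA, to 11.29 and 8.20 on day 6, while the control arm ends at 12.78 and 10.10. The dashed line is the background level of 6.57, and CLDN5 lies below it throughout.

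The first question was which members differed from control on the late days of each knockdown. With NANOG shRNA, EPCAM, CLDN7 and CLDN1 were lower than in control cells on days 4 to 7. The differences were -0.93, -1.10 and -0.75 on the log2 scale. EPCAM and CLDN7 also fell within the arm itself, by 1.24 and 1.43 from days 0 and 1. CLDN3, CLDN4, CLDN6 and CLDN10 did not pass the test. So 3 of 7 members tested were called lower and 0 higher, where 15.2% of all 13575 genes were called and 7.47% were called lower (limma, Benjamini-Hochberg adjusted p under 0.05). The members' median was -0.20, against 0.000958 over all genes.

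EPCAM, the adhesion glycoprotein, read 13.23, 13.15, 13.04, 12.64, 12.52, 12.02 and 11.29 from day 0 to day 6 with NANOG shRNA. The control arm read 13.10, 12.94, 13.03, 13.10, 12.96, 13.02, 12.72 and 12.78 from day 0 to day 7. Each NANOG shRNA level was below that of the day before, that of day 6 was the lowest of the series, and on days 4 to 6 did not overlap the control levels of days 4 to 7. The late means were 11.94 ± 0.62 (SD, n = 3) and 12.87 ± 0.14 (SD, n = 4), a difference of -0.93 ± 0.20 (SE) with a limma adjusted p of 0.00151.

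EPCAM has 3 probes on the array, and all of them passed. Fitted singly, they gave late differences from control of -0.93, -1.003 and -0.87 with NANOG shRNA, and limma adjusted p-values of 0.00167, 0.00389 and 0.00516. Their changes from days 0 and 1 were -1.24, -1.39 and -1.18, and each was called. The 3 probes therefore gave the same call and sizes that overlap within their errors (SE 0.20, 0.24 and 0.21 for the late differences).

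**Figure D2:**
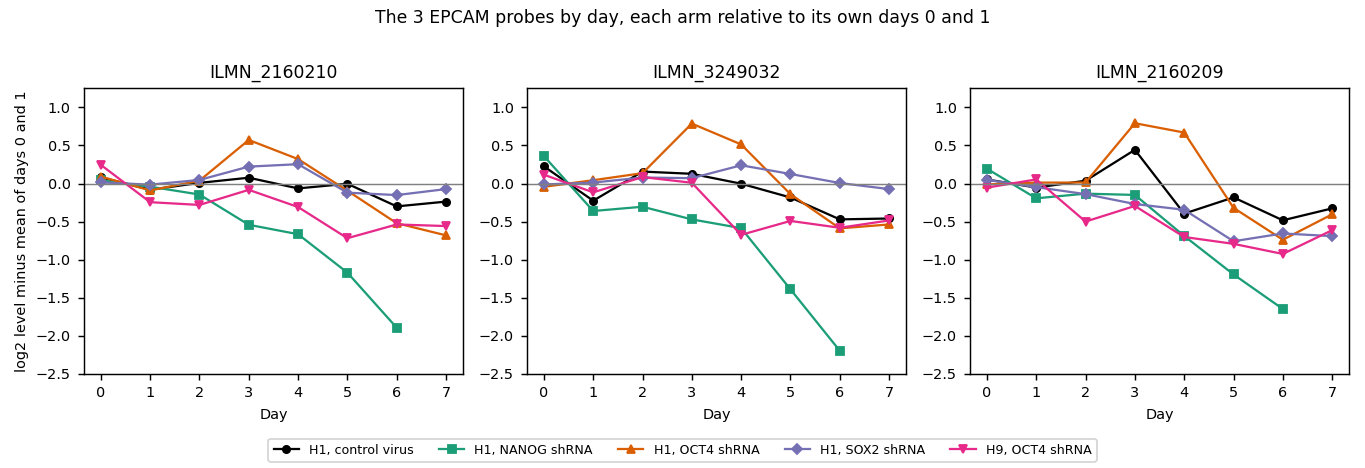
The 3 EPCAM probes (1 panel each), as log2 level minus the mean of the arm's own days 0 and 1 (y axis), by day (x axis), 1 array per point in 5 arms. In each panel the NANOG shRNA arm is the lowest on days 5 and 6 and the H1 OCT4 shRNA arm peaks on day 3.

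CLDN7, the claudin that EPCAM binds, read 10.31, 10.31, 9.86, 9.78, 9.56, 8.89 and 8.20 from day 0 to day 6 with NANOG shRNA. Control cells read 10.20, 9.92, 9.9993, 9.88, 9.85, 9.96, 10.04 and 10.10 over days 0 to 7, a span of less than 0.4. All NANOG shRNA levels from day 4 on lay below every control level. The late difference was -1.10 ± 0.22 (SE), or 2.15-fold lower, with a limma adjusted p of 7.09e-04.

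CLDN1, a claudin of the epidermal barrier, read 6.91, 7.34, 7.38, 7.42, 7.35, 6.79 and 6.60 with NANOG shRNA, and 7.00, 7.38, 7.42, 7.32, 7.68, 7.71, 7.85 and 7.39 in control cells. The arms ran together to day 3. From day 4 they were apart, and the lowest control level of days 4 to 7 (7.39) lay just above the highest of the knockdown (7.35). The late difference was -0.75 ± 0.19 (SE; limma adjusted p 0.00493). The change within the NANOG shRNA arm was -0.21 ± 0.22 (SE) and was not called.

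These NANOG shRNA results lean on day 6. Without day 6 of all arms, EPCAM's late difference was -0.65 (adjusted p 0.0609), that of CLDN7 -0.74 (0.0613) and that of CLDN1 -0.53 (0.181), so no member was called; without the NANOG shRNA array of day 6 alone, CLDN7 at -0.76 (0.0280) was still called and EPCAM at -0.60 (0.0536) and CLDN1 at -0.59 (0.0698) were not. CLDN1 was also not called without day 5 of all arms (-0.66, 0.0840). The falls of EPCAM and CLDN7 within the arm were called in every fit run. Setting the arm's change against that of control gave -1.09 ± 0.33 (SE) for EPCAM and -1.35 ± 0.37 (SE) for CLDN7, with limma adjusted p-values of 0.108 and 0.0621, so 0 of 7 were called by limma (3 at an unadjusted p under 0.05), where 1.1% of genes were called. With the day as a block, EPCAM's value was -1.14 and its adjusted p 0.0135. Without the NANOG shRNA array of day 4, EPCAM at -1.38 (0.0118) and CLDN7 at -1.69 (0.00420) were called.

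The other members with NANOG shRNA read as follows. CLDN6 read 9.81, 10.04, 10.03, 10.31, 10.14, 9.90 and 9.61 from day 0 to day 6, and its late difference from control was 0.13 ± 0.13 (SE). CLDN3 read 7.99, 7.36, 7.76, 8.10, 8.37, 7.91 and 7.62, and its late difference was -0.05 ± 0.28 (SE). CLDN10 read 9.79, 9.85, 9.91, 9.83, 9.71, 9.71 and 9.54, with a late difference of -0.20 ± 0.24 (SE). The late levels of CLDN6 and CLDN3 overlapped those of control, and those of CLDN10 lay below all of the control levels of days 4 to 7 by its main probe. By its second passing probe they overlapped, at 8.34 to 8.56 against 8.26 to 8.63, with a difference of -0.03.

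The promoter of CLDN7, which had the largest late difference of the members in that arm, is shown because it holds an unusual number of E-boxes (CAGGTG or, on the other strand, CACCTG). SNAI and ZEB proteins, repressors of epithelial genes, bind this motif. The 250 bases before the start are given 5′ to 3′ on the gene's strand, from RefSeq on GRCh38.p14, with the motif in capitals. The CLDN1 promoter, of another claudin lower with NANOG shRNA, stands beside it for comparison. They lie at chr17:7262479-7262728 and chr3:190322447-190322696, both on the minus strand.
CLDN7: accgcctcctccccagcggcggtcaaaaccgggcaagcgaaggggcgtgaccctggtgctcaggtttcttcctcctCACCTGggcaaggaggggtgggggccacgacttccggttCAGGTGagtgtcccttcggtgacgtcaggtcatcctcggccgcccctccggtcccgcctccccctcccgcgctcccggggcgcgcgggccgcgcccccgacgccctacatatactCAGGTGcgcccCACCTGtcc
CLDN1: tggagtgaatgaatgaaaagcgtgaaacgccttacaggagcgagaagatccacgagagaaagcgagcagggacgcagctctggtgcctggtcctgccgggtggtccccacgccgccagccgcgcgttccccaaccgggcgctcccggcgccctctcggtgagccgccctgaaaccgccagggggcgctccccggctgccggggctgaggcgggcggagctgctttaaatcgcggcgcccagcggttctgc

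The CLDN7 window holds 4 matches, and 0.122% of the 35116 promoter windows of this length in the table hold 4 or more. At least 1 match is found in 17.5% of them. None was found in the CLDN1 window, in those of CLDN3, CLDN4 and CLDN6, in either of CLDN10, or at a further CLDN7 start upstream. Neither the Grainyhead motif AACNGGTT (both strands, 1.49% of windows) nor the octamer ATGCAAAT (both strands, 1.63%) was found in any of the 8 windows of the 6 claudins matched. A match is a description of these letters and not of binding.

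Of the repressors of epithelial genes, 8 of the listed 12 with a probe were tested. With NANOG shRNA 3 were higher and 0 lower, where 15.2% of all genes were called. ZEB2, a zinc finger repressor of CDH1, was above background on 0 of 4 control arrays and was at least 2.25-fold higher (limma adjusted p 5.62e-05). TCF4 and TCF3, E-box binding E proteins, were 0.50 and 0.42 log2 units higher. With OCT4 shRNA in H1, where CLDN7 was at 0.12 and not called, SNAI2, TCF4 and TWIST1 were higher and SNAI3 lower. ZEB2 was above background on late arrays of that arm too. The part of these repressors in the CLDN7 result was not tested.

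OCT4 shRNA in H1 cells gave another pattern. EPCAM and CLDN7 differed from control by -0.02 and 0.12 and were not called, CLDN1 was lower by 0.95 (difference -0.95) and CLDN6 higher by 0.38, on the log2 scale. Thus 2 of 7 members were called, where 47.7% of all genes were called, a smaller share than the background. The members' median was 0.12.

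EPCAM read 13.19, 13.01, 13.14, 13.67, 13.42, 13.00, 12.58 and 12.42 by day with OCT4 shRNA. By its main probe it was highest of all 39 arrays on day 3 and below every control level on days 6 and 7. The window of days 4 to 7 thus averaged a high and a low stretch. By its dimmest probe the level of day 7, 8.22, lay above the control level of day 6, 8.09. With the main probe the late difference was -0.02 ± 0.19 (SE), with a 95% interval from -0.40 to 0.37. The difference on days 2 and 3 was 0.34 ± 0.27 (SE), and neither was called. Fitted singly, the other probes gave late differences of -0.08 and 0.20, not called.

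CLDN7 read 10.33, 10.04, 9.87, 9.82, 9.63, 10.08, 10.30 and 10.43 with OCT4 shRNA. It was lowest on day 4 and ended above the control levels of days 6 and 7. The late difference from control was 0.12 ± 0.21 (SE), with a 95% interval from -0.30 to 0.55, and was not called.

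CLDN1 read 6.58, 7.09, 6.93, 6.15, 6.54, 6.66, 6.65 and 6.99 with OCT4 shRNA. On days 4 to 7 it lay below every control level, and the late difference was -0.95 ± 0.17 (SE; limma adjusted p 2.76e-05). On days 0 and 1 its differences from control were already -0.42 and -0.29, and the change within the arm was -0.13 ± 0.21 (SE), not called. The control arm's own change was 0.47 ± 0.21 (SE), not called either. CLDN1 was called lower on days 2 and 3 too, at -0.83 ± 0.24 (SE, limma adjusted p 0.0400), where 5.18% of genes were called. Without the OCT4 shRNA array of day 3 the value was -0.44. Without the control array of day 2 or day 3 it was -0.78 or -0.88. These fits leave 1 array in a group, and the call did not hold in them. On log2 of the deposited intensities it was not called either.

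CLDN6, a claudin of early embryonic epithelia and a surface marker of pluripotent cells, read 10.22, 10.24, 9.84, 10.31, 10.02, 10.27, 10.21 and 10.05 with OCT4 shRNA. Control cells read 9.75, 10.004, 9.91, 9.73, 9.73, 9.66, 9.94 and 9.71. The late levels did not overlap, and the difference was 0.38 ± 0.12 (SE; limma adjusted p 0.0114), called in all fits run except that without day 5 of all arms (0.30, adjusted p 0.114). On days 0 and 1 it was already 0.47 and 0.23 higher, and its change set against that of control was 0.03 ± 0.21 (SE).

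CLDN10, which forms paracellular ion channels, read 10.19, 9.87, 9.97, 10.07, 10.78, 10.58, 10.07 and 8.88 with OCT4 shRNA, and between 9.75 and 10.03 on every control array. It was at its highest of the series on day 4 and at its lowest on day 7. The second passing probe traced the same shape, at 9.29 on day 4 and 8.08 on day 7. The late difference of 0.23 ± 0.22 (SE) was not called; without the array of day 7 it was 0.63 (limma adjusted p 5.89e-04).

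CLDN3, a sealing claudin, read 7.62, 7.53, 8.00, 8.61, 8.07, 7.77, 7.12 and 7.20 with OCT4 shRNA, against 7.98, 7.82, 7.90, 7.86, 8.24, 8.21, 7.38 and 8.25 in control. The late difference of -0.48 ± 0.26 (SE) was not called (limma adjusted p 0.125); with the day as a block it was (0.0291), as it was without the control array of day 6 (-0.69, 0.0306) or the OCT4 shRNA array of day 4 (-0.66, 0.0393). CLDN4, which with CLDN3 is a receptor of a clostridial enterotoxin, was above background on 3 of 4 late arrays with OCT4 shRNA and on 0 of 4 in control, at least 1.197-fold higher, and was not called (limma adjusted p 0.0604). Its change set against that of control was called (limma adjusted p 0.0343), the only member of 7, where 23.6% of genes were called. It was above background on 0 of 2 early OCT4 shRNA arrays and on 0 of 4 late control arrays, so the fitted value of 0.76 rests partly on levels not above background and is not a measured size. The control array of day 0 read 7.20 against 6.36 to 6.60 on the other control days, and without it the fitted value was 0.36 (0.420). Without any 1 of 4 other arrays (control day 6, OCT4 shRNA days 0, 1 and 4) it lay between 0.64 and 0.79 and was not called (0.0554 to 0.0996).

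**Figure D3:**
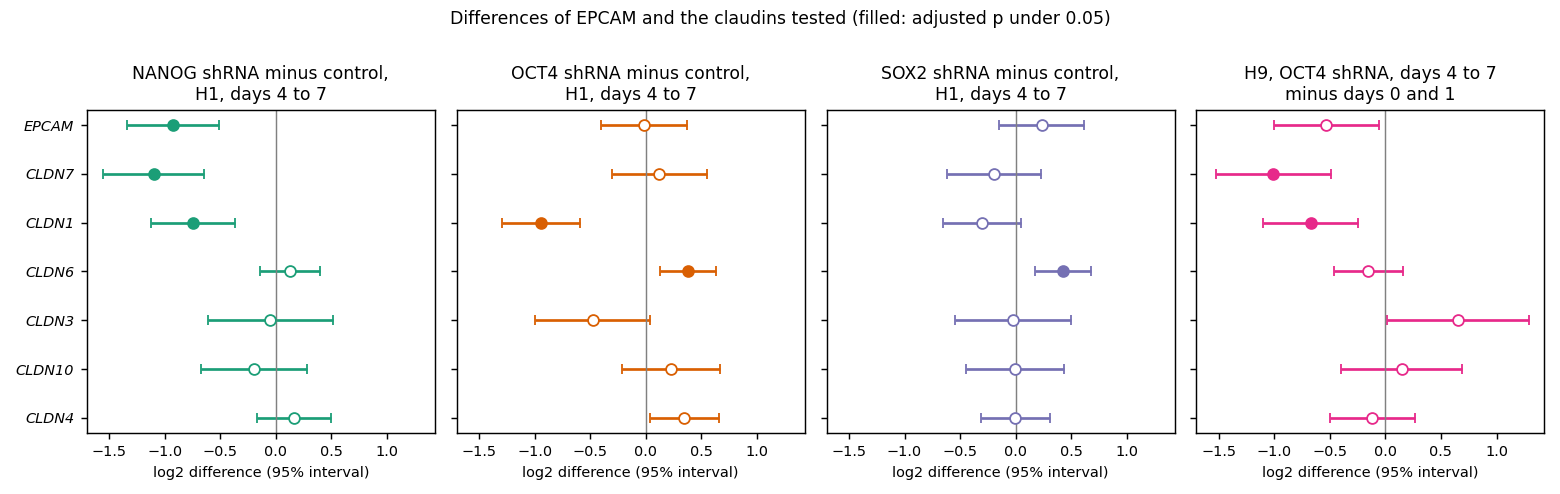
Log2 difference (x axis) with its 95% interval for the 7 members tested (y axis), in 3 late differences from control and in the change over time of the H9 arm. Filled points were called. EPCAM (-0.93) and CLDN7 (-1.10) lie left of 0 with NANOG shRNA and near 0 with OCT4 shRNA in H1 (-0.02 and 0.12).

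The knockdowns were set against each other directly, since a call in 1 arm and none in another is no test of their difference. EPCAM was 0.91 ± 0.20 (SE) higher and CLDN7 1.23 ± 0.22 (SE) higher with OCT4 shRNA than with NANOG shRNA on days 4 to 7, with limma adjusted p-values of 4.53e-04 and 4.05e-05. Both were called in every fit run. They were the only 2 members called of 7, where 42.7% of genes were called. For CLDN10 this difference was 0.43 (limma adjusted p 0.147), with the day as a block 0.56 (0.0304), and without the OCT4 shRNA array of day 7 0.83 (5.98e-05). NANOG itself, near background in both arms, did not differ between them (-0.12 ± 0.20, SE, limma adjusted p 0.684). POU5F1 and SOX2 were lower with OCT4 shRNA, at -4.73 and -3.64. Which of the factors the EPCAM and CLDN7 differences go with was not tested.

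Against SOX2 shRNA, EPCAM was lower with NANOG shRNA, at -1.16 ± 0.20 (SE; limma adjusted p 7.88e-05), as was CLDN7, at -0.91 ± 0.22 (SE; 0.00369), 2 of 7 members where 17.9% of genes were called. Without the NANOG shRNA array of day 6, CLDN7 was at -0.57 (0.0999). CLDN1 was lower with OCT4 shRNA than with SOX2 shRNA, at -0.64 ± 0.17 (SE; limma adjusted p 0.00247), the single call of 7, where 46.8% of genes were called. For CLDN3 this difference was -0.46, with an adjusted p of 0.145, with the day as a block of 0.0375, and without the OCT4 shRNA array of day 4 -0.64 (0.0470). On CLDN1, OCT4 and NANOG shRNA differed by -0.20 with a 95% interval from -0.58 to 0.18, not called.

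With SOX2 shRNA, CLDN6 was higher than in control on days 4 to 7 and no other member was called. That is 1 of 7 members, where 8.18% of genes were called. CLDN6 read 9.91, 9.91, 10.13, 10.16, 10.01, 10.23, 10.25 and 10.24 by day. Its late levels lay above all control levels of those days, by 0.42 ± 0.12 (SE, limma adjusted p 0.0276). That call was lost without any 1 of 6 single arrays (0.39 to 0.41, adjusted p 0.0658 to 0.0854). Of the 47 fits that left out a day or an array, 39 gave the same count of members called. The change set against that of control was 0.39 ± 0.21 (SE), not called. EPCAM, at 13.38, 13.01, 12.98 and 13.05 on days 4 to 7, differed from control by 0.23, with a 95% interval from -0.15 to 0.62. CLDN7, at 9.77, 9.46, 9.93 and 10.02, differed by -0.19, with an interval from -0.62 to 0.23.

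Several comparisons called no member by limma. On days 2 and 3, 0 of 7 members were called with NANOG shRNA (3.92% of genes) and 0 of 7 with SOX2 shRNA (0.405% of genes), and 0 had an unadjusted p under 0.05 in either. Over time, 0 of 7 were called in the control arm (0.53% of genes), where CLDN1 alone had an unadjusted p under 0.05. In the H1 OCT4 shRNA arm 0 of 7 were called (41.7% of genes), and CLDN4 alone had such a p. In the SOX2 shRNA arm 0 of 7 were called (6.9%), and 0 of 7 in its change set against control (0.0295%), with 0 at an unadjusted p under 0.05 in both. SOX2 itself was already lower in that arm on days 0 and 1, and its change set against control was -0.02 (limma adjusted p 0.996). Comparisons of change therefore cannot show a difference present from the start. In the NANOG shRNA arm 2 of 7 were called, EPCAM and CLDN7, where 10.8% of genes were called.

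In H9 cells with OCT4 shRNA, CLDN7 and CLDN1 fell from days 0 and 1 to days 4 to 7, by 1.01 and 0.67 on the log2 scale. These were 2 of 7 members, where 26.8% of genes were called. EPCAM was at -0.53 and not called by its main probe. With no H9 control arm, a change brought by time or virus alone cannot be told apart from that of the knockdown.

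CLDN7 in H9 read 10.26, 10.48, 10.40, 9.69, 9.81, 9.67, 9.13 and 8.82 from day 0 to day 7. Every level from day 3 on lay below those of days 0 to 2, and the last 2 were the lowest. The change was -1.01 ± 0.25 (SE; limma adjusted p 0.00321), and without the array of day 1 it was -0.90 (0.0593). Over the same days the H1 cells with OCT4 shRNA ended at 10.43. The H9 change differed from the H1 change by -0.94 ± 0.36 (SE), with an adjusted p of 0.0498 and, with the day as a block, 0.0530; it was 1 of 7 members, where 28.2% of genes were called.

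CLDN1 in H9 read 7.31, 7.20, 7.32, 7.13, 6.78, 6.22, 6.54 and 6.79. It was below all of its earlier levels from day 4 on, with 2 of 4 late arrays above background. The change was -0.67 ± 0.21 (SE; limma adjusted p 0.0159) and, without any 1 of the arrays of days 0, 1 and 5, lay between -0.73 and -0.55 and was not called (adjusted p 0.0594 to 0.131). H9 and H1 did not pass a test of their difference on CLDN1 (-0.55, 95% interval from -1.16 to 0.06).

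EPCAM in H9 read 13.50, 13.01, 12.97, 13.17, 12.95, 12.54, 12.72 and 12.70. The 3 probes changed by -0.53, -0.56 and -0.76, with limma adjusted p-values of 0.0948, 0.143 and 0.0199 when fitted singly. The first and the last of these probes lie where the H9 values had to be moved back by 2 rows, and the one between them does not. CLDN3 in H9 read 7.88, 7.35, 8.13, 8.53, 9.09, 8.59, 7.86 and 7.50, with its highest level of the series on day 4. Its change of 0.65 was not called (limma adjusted p 0.128), and was without the array of day 7 (0.90, 0.0257). CLDN6 read 9.49, 9.42, 9.87, 9.87, 9.62, 9.48, 9.11 and 8.9996, the 2 last being its lowest of the series, and its change was -0.16, not called.

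The other junction genes give these values their setting. Each list was chosen with earlier results of these data known, and its counts are descriptions, to be read beside the 47.7% (OCT4), 15.2% (NANOG) and 8.18% (SOX2 shRNA) of all genes called on days 4 to 7. Of 9 other claudins tested, 1 was higher and 5 were lower with OCT4 shRNA, with a median of -0.38. CLDN9 was not above background on any of the 4 control arrays and was at least 1.53-fold higher. CLDN19, CLDN14 and CLDN11 were lower by 1.08, 1.03 and 0.78 (differences of -1.08, -1.03 and -0.78). With NANOG shRNA 2 of 9 were lower, CLDN15 at -0.90 and CLDN14 at -0.69, and 0 were higher. With SOX2 shRNA 1 was higher, CLDN11 at 0.61.

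Of 20 adherens junction and desmosome genes, 14 were higher and 2 lower with OCT4 shRNA, with a median of 0.67 against -0.00215 over all genes. The desmosomal plaque protein DSP, the desmosomal cadherin DSC2 and the plaque protein PKP2 were higher by 3.04, 2.45 and 1.95. NECTIN1 and VCL, an adhesion molecule and an actin linker, were at -0.79 and -0.73. With NANOG shRNA 1 was higher and 4 were lower, among them PKP2 at -1.11, CDH3 (P-cadherin) at -0.88 and NECTIN1 at -0.73, while CTNNB1 was at 0.63. With SOX2 shRNA 0 of 20 were called by limma, 1 at an unadjusted p under 0.05. The H9 change under OCT4 shRNA was below the H1 change for 11 of the 20 and above it for 0, with a median of -0.74. In that comparison 28.2% of all genes were called.

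Of 19 other tight junction genes, 4 were higher and 7 lower with OCT4 shRNA, 11 of 19 beside 47.7% of all genes. The cytoplasmic plaque proteins CGN and TJP1 were higher by 1.72 and 1.03, and PALS1, a polarity scaffold, by 0.49. PARD6A, another polarity protein, and the adhesion molecules CXADR and JAM2 were at -1.29, -1.07 and -0.96. With NANOG shRNA 1 was higher (JAM3, 0.48) and 4 were lower, among them CGNL1 at -1.27, JAM2 at -0.57 and CRB3 at -0.54. With SOX2 shRNA MARVELD2 was higher by 0.34 and JAM2 was at -0.86.

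**Figure D4:**
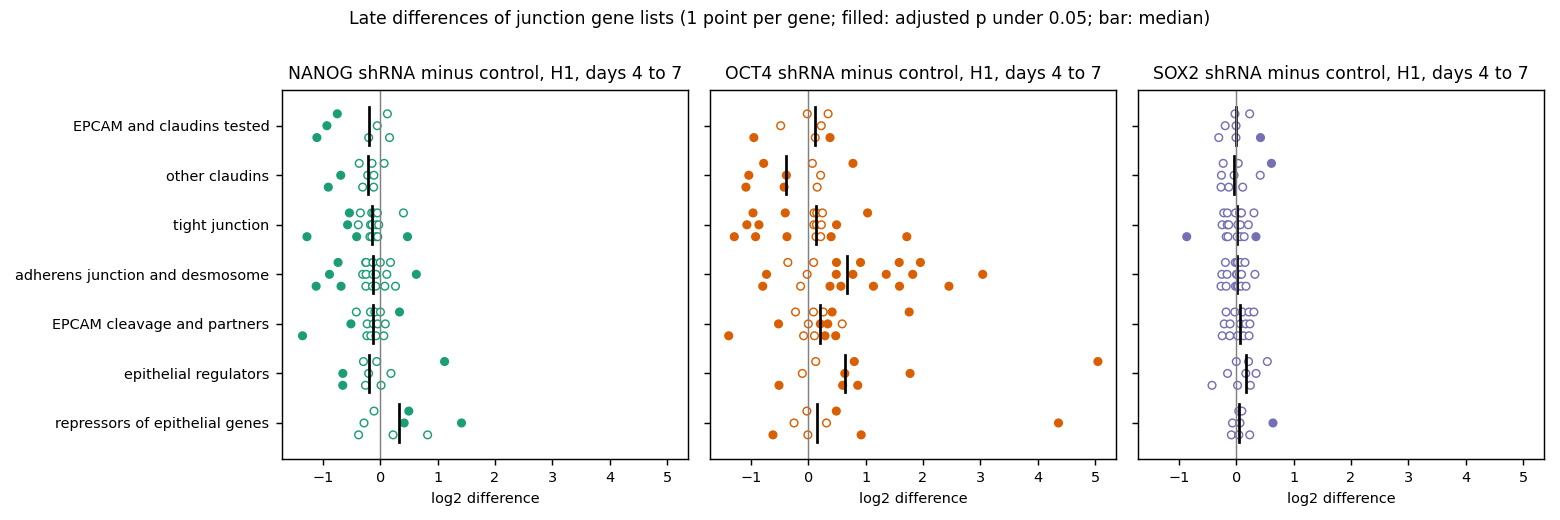
Late log2 difference from control (x axis) of each tested gene (1 point) among EPCAM and the claudins and in 6 gene lists (y axis) for 3 knockdowns in H1 cells. Filled points were called and the bar is the list's median. With OCT4 shRNA the adherens junction and desmosome list has its median at 0.67, and EPCAM with the claudins at 0.12.

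Genes for proteins that cut or bind EPCAM were counted too. Of 15 tested, 6 were higher and 2 lower with OCT4 shRNA, 1 was higher and 2 lower with NANOG shRNA, and 0 were called with SOX2 shRNA by limma (2 at an unadjusted p under 0.05). These counts, 8 of 15 and 3 of 15, stand near the 47.7% and 15.2% of all genes called in those arms. CD9, a tetraspanin that associates with EPCAM, was at -1.38 with OCT4 shRNA and at -1.35 with NANOG shRNA, 2 differences that share the control arrays. The adhesion receptor CD44 was higher by 1.76 with OCT4 shRNA, ADAM17, a protease that sheds the EPCAM ectodomain, by 0.42, and FHL2, which binds the EPCAM intracellular domain, by 0.48, and APH1B, a gamma-secretase subunit, was at -0.52. SPINT1, an inhibitor of matriptase, was at -0.51 with NANOG shRNA, and NCSTN, a gamma-secretase subunit, at 0.34.

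Of 9 epithelial regulators, 6 were higher and 1 lower with OCT4 shRNA. TFAP2A, GRHL2 and TFAP2C, transcription factors of epithelia and trophoblast, were higher by 5.05, 1.77 and 0.86, and the splicing regulator ESRP1 was at -0.51. With NANOG shRNA, TFAP2A was higher by 1.12, and ELF3 and ESRP1 were at -0.65 each. With SOX2 shRNA 0 of 9 were called by limma, 1 at an unadjusted p under 0.05. Among the repressors, SNAI2 was higher by 4.36 with OCT4 shRNA, TCF4 by 0.92 and TWIST1 by 0.49, and SNAI3 was at -0.61. With SOX2 shRNA, TWIST1 was higher by 0.64.

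Markers of cell types also differed between the arms. Their counts stand beside the 47.7% (OCT4), 15.2% (NANOG) and 8.18% (SOX2 shRNA) of all genes called late in H1. For the H9 change over time that share was 26.8%. Of 11 pluripotency markers, 1 was higher and 9 were lower than in control with OCT4 shRNA on days 4 to 7, 0 and 7 with NANOG shRNA and 0 and 1 with SOX2 shRNA, and in H9 1 rose and 7 fell. With OCT4 shRNA in H1, 10 of 11 trophoblast and amnion markers were higher and 0 lower, and the mean over the list lay between 9.46 and 9.70 on days 4 to 7, against 6.67 to 6.75 in control. By their brightest probes, GATA2 and CDX2 were above background on no array of any other arm. They could pass the filter of at least 4 arrays only through the arm where they are high, so the count is a description. Of 8 fibroblast markers tested 7 were higher and 1 lower in the H1 OCT4 shRNA arm, with array means of 9.26 to 10.49 against 8.61 to 8.79. By its brightest probe PDGFRA, of the same list, was above background only on late arrays of that arm. It could pass the filter of at least 4 arrays only through them, so this count is a description too. DCN's brightest probe was above background on none of those late arrays, and a dimmer probe that passed the filter was counted. With NANOG shRNA, 5 of 5 neuroectoderm markers tested were higher, with array means of 7.58 to 8.43 against 6.62 to 7.03, and SOX1 and ZIC1 were above background on no late array. In H9, 3 of these 5 rose and 0 fell, and the means went from 6.77 to 6.91 on days 0 and 1 to between 7.31 and 8.19. Of 11 trophoblast and amnion markers in H9, 1 rose and 1 fell, and GATA2, GATA3, CDX2, TFAP2A, KRT7, CGA and HAND1 were above background on no late array. The part of these markers in the levels of EPCAM and the claudins was not tested. Of 10 endothelial markers, PECAM1, CDH5, TIE1, ESAM, ROBO4 and EMCN were above background on no late array of any arm, where CLDN5 was not above background either. Others of the 10 were above it on every late array: 3 in control, with SOX2 shRNA and in H9, 4 with NANOG shRNA and 2 with OCT4 shRNA in H1. Of the 4 tested, 0 were higher and 3 lower with OCT4 shRNA, 2 and 1 with NANOG shRNA and 1 and 1 with SOX2 shRNA.

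Across the 39 arrays, EPCAM and CLDN7 had a Pearson r of 0.60, the highest of the 21 pairs of members tested, and of 0.64 over the 31 H1 arrays. CLDN6 and CLDN10 had 0.53 and, within H1, 0.22. The other 19 pairs lay between -0.36 and 0.34 over the 39 arrays. Arrays of 1 arm are successive days of 1 culture, so these values are descriptions.

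The genes whose levels ran most like a member's were taken by Pearson r over the 39 arrays. Their late differences come from the same arrays, so they follow in part from that choice and are descriptions. For EPCAM they were PPM1H (r = 0.81), TRAF3IP2 (0.80) and TMEM125 (0.78), with late differences of -0.99, -1.22 and -1.21 with NANOG shRNA. For CLDN7 they were MAPK13 (0.79), COMTD1 (0.79) and TMEM30B (0.78), and the late differences with NANOG shRNA were -0.47 (not called), -0.95 and -0.88. For CLDN6 the first was CDH1, which encodes E-cadherin, with an r of 0.83 over 39 arrays and 0.55 over the 31 H1 arrays, followed by LYPLA2 (0.83) and RUNX1T1 (0.79). For CLDN1 they were TTC9 (0.79), TRIB1 (0.76) and IDO1 (0.74), for CLDN3 SCARB2 (0.80), LCMT1 (0.79) and FIG4 (0.77), and for CLDN10 CTSV (0.76), ANXA9 (0.75) and MCCC1 (0.73). CLDN4, near background, had none above 0.65 (VPS35 0.65, TP53BP2 0.64, DCAF5 0.62).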

How the data were processed

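Intensities from 1-colour Illumina bead arrays were used as the authors deposited them, on a linear scale. The medians of the 39 arrays used lay between 135.619 and 135.686, close as after quantile normalization, but whole distributions were not compared. The software is not given in the sources used here. In the H9 columns, values after row 13059 (counted in the probe order of a second deposited table, whose 80 value columns match no label and were not used) stood 2 rows early and were moved back, which raised their correlation with H1 from 0.224 to 0.990; 30 probes there were left out. The claudin probes and 1 EPCAM probe lie before that row.

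Intensities were corrected by normexp (offset 50) and taken to log2. The background level is 144.834 intensity units, from 437 olfactory receptor probes. Probes above it on at least 4 arrays passed (25038), and each of 13575 genes was read from its brightest passing probe. Of all probes 30113 had 1 gene symbol in the platform annotation, 8 several and 17202 none. limma 3.58.1 in R 4.3.3 fitted arm by window means (days 0 and 1, 2 and 3, 4 to 7) over 39 arrays, in 18 contrasts, with Benjamini-Hochberg adjustment over all genes. The fit was tested on simulated data. "At least N-fold" sets the brighter mean against the higher of background and the dim probe's own level.

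Arrays of different arms with the same number in their label share a day, so the day was also fitted as a block. Of 76 same-day pairs, 48 had deviations correlated above 0.1 (median 0.135, range -0.14 to 0.45). Named are all members, the targeted genes, the largest called differences of each list and the 3 genes most like each member; DCN is named in addition for its reversal. The members and lists were chosen with earlier results of these data known. Promoters are RefSeq's (GRCh38.p14) for 6 members; EPCAM and CLDN5 had no entry used here.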

Additional observations from a re-analysis of the deposited data

Results flagged for a closer look

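Among 28 sets of late levels, 4 had 1 day apart from the others by Dixon's criterion, which flags about 1 set in 20 by chance. CLDN3 in control cells read 7.38 on day 6 against 8.21 to 8.25 on the other late days (ratio of gap to range 0.952). CLDN4 in control cells read 6.36 on that day against 6.51 to 6.53 (0.872), all below background. In SOX2 shRNA cells on day 4, CLDN6 read 10.01 against 10.23 to 10.25 (0.881) and CLDN10 9.65 against 9.89 to 9.94 (0.839). Without the control array of day 6, the CLDN3 difference with OCT4 shRNA was called.

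The change of CLDN7 under OCT4 shRNA differed between H9 and H1 cells by -0.937 log2 units (limma adjusted p 0.0498). It is a fall of 1.01 in H9 and a change of -0.07, not called, in H1. The call was lost in 44 of 56 alternatives.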

How the results depend on the processing

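Each number here counts members called of the 7 tested (8 with no filter). On log2 of the deposited intensities OCT4 shRNA on days 2 and 3 called 0. With no filter the H1 OCT4 shRNA change over time called 1, which was CLDN5 at -0.43 (limma adjusted p 0.0103), below background on every array. CLDN5 was then also called in the late OCT4 shRNA difference, at -0.33 (0.0129). For the NANOG shRNA change set against control, array weights called 2, the day as a replicate block 1 and H1 arms alone 1. Array weights called 4 both for OCT4 against NANOG shRNA and for NANOG against SOX2 shRNA, and the block called 2 for OCT4 against SOX2 shRNA. For the H9 change set against that of H1, 0 were called on log2 of the deposited intensities, with an offset of 16, with no filter, with the mean of passing probes, with an intensity trend and with the block.

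Leaving out days or arrays gave late calls from 1 to 3 with OCT4, 0 to 3 with NANOG and 0 to 1 with SOX2 shRNA. It gave 0 to 1 for OCT4 shRNA on days 2 and 3. For changes over time it gave 0 to 1 in the H1 OCT4 shRNA arm, 2 to 2 in the NANOG shRNA arm and 0 to 3 in H9. Set against control, it gave 0 to 1 for OCT4 and 0 to 2 for NANOG shRNA. Between arms it gave 2 to 3 (OCT4 against NANOG), 1 to 3 (OCT4 against SOX2), 1 to 4 (NANOG against SOX2) and 0 to 1 (H9 against H1 change). The remaining 5 comparisons called 0 throughout.

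The block changed no call of a member other than those given with the results (EPCAM, CLDN3, CLDN7 and CLDN10), and no block applies within an arm, where each day has 1 array.

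Over all genes, array weights moved late calls from 2069 to 4735 with NANOG and from 1111 to 2277 with SOX2 shRNA, and from 2429 to 4912 between them. On days 2 and 3 they moved calls from 532 to 1907 and from 55 to 342. They moved changes over time from 72 to 376 in control, from 1461 to 2783 with NANOG and from 937 to 1770 with SOX2 shRNA, and changes set against control from 150 to 730 and from 4 to 37. The block gave 815 and 85 on days 2 and 3, and 309 and 8 for the changes set against control, with NANOG and SOX2 shRNA in that order. An offset of 16 gave 39 for the control change.

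DCN, a fibroblast marker, went from higher to -0.019 (adjusted p 0.938) with OCT4 shRNA when no filter was used, since a brighter probe that fails the filter then stands for it. Cyclic loess changed no count of members called by over 1.5 times. For members, 1245 member values stayed on their side of the threshold under settings that leave out no array, 13 passed it and 7 no longer did. The cause of the other shifts was not tested. CLDN4 and CLDN1 lie close to background, which limits how far they can fall.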

Other observations

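The NANOG shRNA array of day 7, left out of all comparisons, still ranks its own probes. EPCAM's main probe stood at percentile 94.4 of that array, against 96.5 on day 6, CLDN7 at 76.98 against 81.3 and CLDN6 at 84.9 against 90.4. The array's scale is unknown, so these ranks are given without a test.

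Both EPCAM and CLDN10 passed through a high stretch with OCT4 shRNA in H1, and both stretches held day 4. By its main probe EPCAM was 0.57 above control on day 3 and 0.46 above it on day 4. Its other probes gave 0.48 and 0.34, and 0.40 and 1.12, on those days. CLDN10 was 0.85 above control on day 4 and 0.74 above it on day 5. Each was below control on day 7. These are single arrays of 1 time course and were not tested by day.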
